A study of Mus musculus with 15 samples.

Results

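Protected small RNAs and long RNA were compared gene by gene in the testis of heterozygous mice, to find which genes carry many small RNAs for their long RNA level. The comparison used 6 of the 15 libraries of the study, 3 of small RNA and 3 of RNA-seq, taken by their genotype label Chr18+/-, which the labels also call HT control. All mice were of the strain B6D2F1 and were sampled at postnatal day 28. The study concerns the pachytene piRNAs of chromosome 18, so the heterozygotes carry 1 intact copy of that locus, and the homozygotes, labelled Chr18-/- or KO, served here as a second set of 3 small RNA and 3 RNA-seq libraries. RNA for the small RNA libraries had been oxidised with periodate, which spares RNAs whose 3′ end is 2′-O-methylated. RNA-seq was of total RNA depleted of ribosomal RNA, with the strand kept. The labels do not say that the libraries of a group came from different animals, so the p-values measure the spread between libraries.

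Per library, gene counts totalled 939641 to 1861402 in small RNA and 28509227 to 41257488 in RNA-seq. Small RNA library 1 stood apart from libraries 2 and 3: small nucleolar RNA genes held 5.26% of its counts against 0.694 and 0.84%, and its gene counts lay further from theirs (chi-square over degrees of freedom, 16.8 and 18.1) than theirs from each other (1.76). RNA-seq library 1 too lay further from RNA-seq libraries 2 and 3 (36.1 and 39.4) than these from each other (16.6), on far larger counts. For results that lean on small RNA library 1, values without it are also given. The testis markers Ddx4 and Sycp3 of germ cells, Acrv1 and Prm1 of spermatids, Sox9 of Sertoli cells and Cyp17a1 of Leydig cells were all present in RNA-seq. The minus-strand precursor of the chromosome 18 locus, 18_qE1_36451_1, had 8948, 3983 and 4422 RNA-seq counts in heterozygotes and 4, 6 and 3 in homozygotes.

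Spermatocytes and spermatids cut pachytene piRNAs out of long single-stranded transcripts and load them onto the PIWI proteins MILI (Piwil2) and MIWI (Piwil1). The methyltransferase Henmt1 then methylates their 3′ end, which is what protects them in the periodate reaction. Besides the precursor loci, the transcripts of many coding genes are known to feed piRNAs in mouse testis, often from the 3′ untranslated region (3′ UTR).

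The genes named for microRNAs show what the small RNA libraries hold. Of 2202 annotated microRNA genes, 32 lie inside an annotated piRNA precursor on the same strand, and these 32 took 96.7% of all small RNA counts of microRNA genes. Mir7217 led with 14596, 7258 and 11491 counts, followed by Mir7230 with 11880, 7751 and 9958. Mir7241 had 4218, 3988 and 4960 counts, Mir468 had 6085, 3198 and 3862, and Mir7214 had 4138, 1602 and 2139. All 5 hairpins lie 100% inside a precursor, and all 5 had 0 RNA-seq counts in every library, as a fragment in overlapping features of a strand was not counted. Their mature sequences are shown because the names say microRNA while the place is a piRNA precursor. They come from RefSeq (GRCm38.p6), with the seed, bases 2 to 8, in capitals.
miR-7217-5p: aACUUGUAucuugugagacagaagg
miR-7217-3p: uGAGAACCcacaagcaagaaga
miR-7230-5p: aGACUGCUguuucucugaguggc
miR-7230-3p: uUGAGUUGagacugucaguaggu
miR-7241-5p: aCUUGCAUgaguuaauacccacc
miR-468-5p: gACUGAUGuacugauaagaaacucagu
miR-7214-3p: cUCAGUCCugaccccuugagcgca
The 7 sequences are 22 to 27 bases long, 2 begin with U, and no seed is shared. Counts are per hairpin gene, so the reads cannot be assigned to an arm, nor is it known that the reads start where the mature form does. The hairpins lie at chr17:27355738-27355799 (Mir7217), chr5:113337590-113337645 (Mir7230), chr9:67727717-67727780 (Mir7241), chr6:81896599-81896676 (Mir468) and chr17:27317035-27317095 (Mir7214), in the mm10 build. MicroRNAs of the usual kind, whose ends are not methylated in mammals, were nearly absent: Mir34c had 35, 2 and 3 counts, Mirlet7a-1 had 10, 1 and 4, Mir449a had 5, 2 and 0, and Mir21a had 0 in all libraries. These 4 were chosen after their values were seen.

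Genes inside the precursors held most of the protected small RNA. The 244 genes with over 10% of their body inside a same-strand precursor took 77.0, 82.3 and 82.2% of the small RNA counts of libraries 1, 2 and 3. They held 0.0355 to 0.0374% of RNA-seq counts, because fragments that fall in both a gene and a precursor were not counted for either. The overlapping precursor annotations form 214 loci, 172 of them with such a gene, and the 10 loci with the most small RNA took 43.2% of all small RNA counts. The first was a plus-strand locus at chr7:73816594-73838894 with 222347, 129640 and 172857 counts, 13.2% of the total, over the genes Gm21269 and Mir7234 together. Its neighbour on the minus strand, at chr7:73773916-73816469, held 95267, 46930 and 51143 counts in Gm10619 and Gm45006. These neighbouring loci face away from each other, which is the usual arrangement of pachytene precursors that share a promoter. The locus of Gm5878 on chromosome 6 held 83854, 48402 and 57436 counts and that of 4933440M02Rik on chromosome 7 held 87110, 40310 and 48715. Each of these loci was high in all 3 libraries.

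Among these genes, 6 were named that had at least 50 RNA-seq counts on average. The long noncoding gene Cep83os had 22730, 12220 and 13849 small RNA counts against 87, 60 and 40 in RNA-seq. Gm2762 had 23358, 13602 and 16572 against 162, 94 and 122. The coding genes Arhgap20 (a GTPase activating protein; 10744, 4821 and 6056 small RNA counts), Cdc42ep3 (an effector of the GTPase Cdc42; 3824, 2822 and 3032), Zfp652 (a zinc finger protein; 5242, 1897 and 2393) and Ipmk (inositol polyphosphate multikinase; 2096, 1142 and 1357) had at most 136 RNA-seq counts in any library. No ratio is read from any gene inside a precursor, since its RNA-seq count leaves out the precursor's own fragments.

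The ratio of small to long RNA was fitted for all genes, those inside precursors included, across the 6 libraries with the edgeR quasi-likelihood test. It is given as a log2 ratio of a gene's scaled share of small RNA counts to its scaled share of RNA-seq counts. The scaling (TMM) sets the bulk of genes near 0, and it matters here: without it every ratio would be about 3.17 lower on the log2 scale, and precursor genes fill most of the small RNA libraries. Ratios therefore rank genes against each other and do not count molecules. A gene was tested when its CPM (counts scaled to a common library total), averaged over both kinds, was at least 10. It was called rich in small RNA with an adjusted p under 0.05, a ratio of at least 4-fold (log2 ratio 2) and all small RNA libraries above all RNA-seq libraries, and poor in the mirror case.

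Of 9025 genes tested, 6898 passed the test (76.4%), 2851 with a higher share of small RNA and 4047 with a lower one. In all, 1773 were rich (19.6%) and 2582 poor (28.6%), and the median log2 ratio was -0.62. These numbers include 178 genes with over 10% of their body inside a precursor, of which 177 were rich. The 8504 genes whose body shares at most 10% with other same-strand features are the ones least touched by the rule that leaves out fragments in overlapping features. Among them 1436 were rich and 2513 poor. Of 8016 such coding genes 1308 were rich and 2305 poor, of 312 long noncoding genes 82 and 133, and of 121 pseudogenes 18 and 62. A gene with little long RNA enters the test only through its small RNA, so it had to come out high. Among the 7613 genes with at least 20 CPM in RNA-seq, which enter whatever their small RNA, 814 were rich and 2504 poor. The 1308 rich coding genes held 8.13 to 9.35% of small RNA counts and 5.05 to 5.26% of RNA-seq counts, whereas the 2305 poor ones held 0.336 to 0.447% and 28.5 to 31.6%. Of the poor genes 439 had no small RNA count at all, and for 155 of those a floor of 3 counts over the 3 libraries would leave the ratio short of 4-fold.

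**Figure D1:**
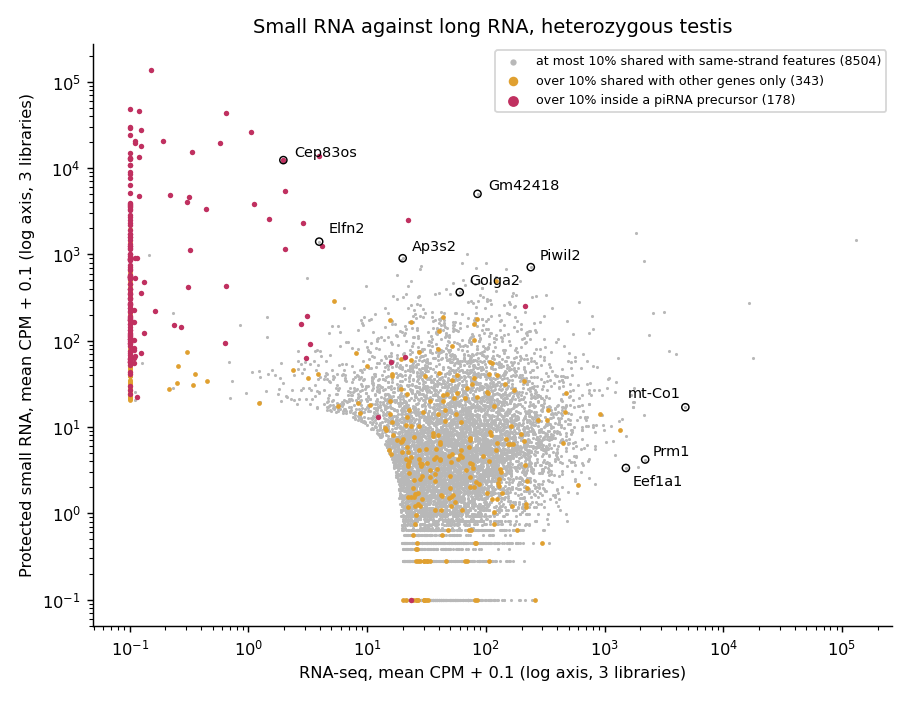
Each point is one of the 9025 genes tested, with mean RNA-seq CPM on the horizontal and mean protected small RNA CPM on the vertical axis, both plus 0.1 and on log axes (3 heterozygous libraries each). Genes inside piRNA precursors line up at the left edge with up to the most small RNA, the empty corner at the lower left is the filter on low values, and Elfn2, Ap3s2, Piwil2 and Golga2 lie above the bulk while Prm1, Eef1a1 and mt-Co1 lie below it.

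The rich coding genes with at least 50 counts on average in each kind of library had much small RNA on modest long RNA. Of the 12 named, Xrcc2, Maz and Tmem170b reached 20 CPM in RNA-seq. The others were under 20 CPM in RNA-seq and needed some small RNA to pass the filter. Those with little RNA-seq, such as Elfn2, had to come out high. Ap3s2, Inip and Crebl2 were nearer to 20 CPM and needed little small RNA, so the filter did not force a high ratio on them. Ratios of named genes under 20 CPM are given as a description, without p. Elfn2, a transmembrane protein with leucine-rich repeats (chr15:78670022-78718113, minus strand), had 2514, 1261 and 1774 small RNA counts against 138, 151 and 83 in RNA-seq. Its log2 ratio was 11.65 (SE 0.51), the highest of the named coding genes outside precursors. A precursor covers 1.06% of the gene, and 90.6% of the RNA-seq counts over its body lay on the opposite strand. Ap3s2, a subunit of the AP-3 vesicle adaptor (chr7:79875325-79920649, minus strand), had 1424, 933 and 1105 small RNA counts, a level of 903 ± 121 CPM (SD, n = 3), against 905, 580 and 494 in RNA-seq, 19.8 ± 2.41 CPM. Its log2 ratio was 8.63 (SE 0.36), with no precursor on its body. All small RNA libraries lay above all RNA-seq libraries for both genes, which the rich call required.

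Inip, part of a complex that binds single-stranded DNA, had 1499, 888 and 959 small RNA counts against 783, 507 and 590 (log2 ratio 8.62, SE 0.37). Crebl2, a CREB-like protein, had 845, 624 and 729 against 754, 485 and 506 (8.15, SE 0.33). Both were under 20 CPM in RNA-seq, and their small RNA libraries lay above all RNA-seq libraries, as in any gene called rich. Smug1, a uracil-DNA glycosylase, had 209, 133 and 136 small RNA counts against 230, 131 and 109 in RNA-seq (log2 ratio 7.86, SE 0.30). Xrcc2, which acts in homologous recombination, had 1219, 733 and 890 against 1289, 750 and 776 (7.83, SE 0.34, adjusted p = 9.63e-08). The others were the zinc finger factor Maz (857, 732 and 903 small RNA counts; log2 ratio 7.68), Tmem170b (882, 476 and 567; 7.55) and the placeholder genes Gm7102 (8.07), Gm10750 (7.86) and 4930539E08Rik (7.57). Gm7102, Maz and 4930539E08Rik had 38 to 41.4% of their RNA-seq counts on the opposite strand.

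Lars2, the mitochondrial leucyl-tRNA synthetase, had a ratio whose size leaned on library 1. It had 795 small RNA counts in library 1 but 47 and 53 in libraries 2 and 3, and 97.8% of its RNA-seq counts lay on the opposite strand. At 8.82 CPM in RNA-seq Lars2 needed small RNA to pass the filter. Its log2 ratio was 7.71 (SE 1.12), and 5.37 without small RNA library 1. The ribosomal protein gene Rpl7a had the same pattern, with 2012, 107 and 158 counts (log2 ratio 6.14, SE 1.07), and stood at 3.85 without that library. Library 1 was the one with the most small nucleolar RNA, and the part of this in the result was not tested.

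**Figure D2:**
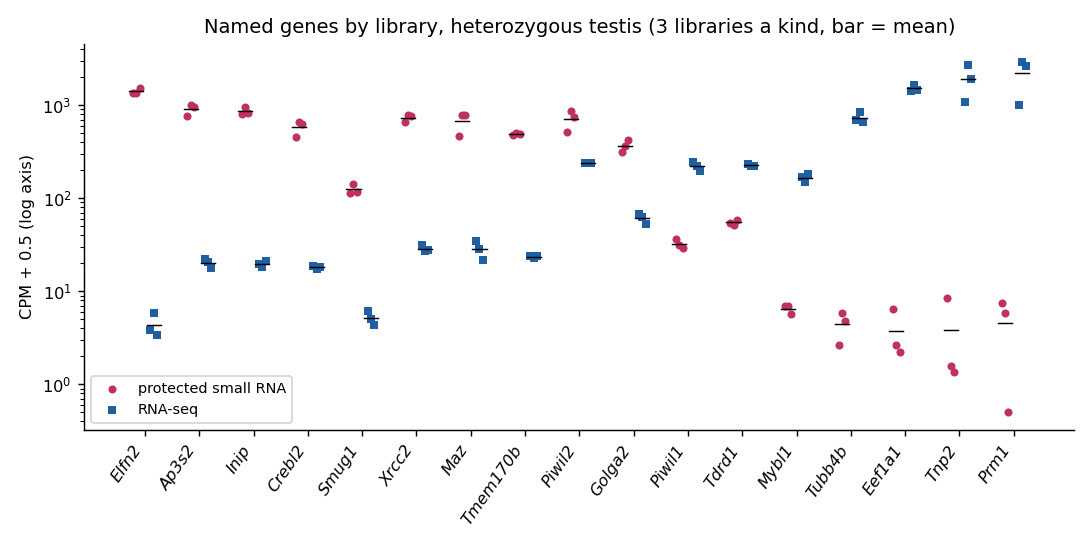
CPM plus 0.5 (log axis) of 17 genes in each heterozygous library, small RNA as circles and RNA-seq as squares, with the mean as a bar. In the 10 genes from Elfn2 to Golga2 all small RNA points lie above all RNA-seq points, and in the 7 from Piwil1 to Prm1 they lie below, although Piwil1 and Tdrd1 have ratios above 0 once libraries are scaled.

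Rich long noncoding genes outside the precursors were fewer in number than coding ones (82 against 1308) and less even. Their share of those tested was larger, 26.3 against 16.3%, but not among genes with at least 20 CPM in RNA-seq. Gm42418 (chr17:39846958-39848788) had 16793, 2458 and 4032 small RNA counts and 5456, 2469 and 1038 in RNA-seq, with a log2 ratio of 9.18 (SE 0.94, adjusted p = 2.19e-05). Library 1 was again the highest by far, 95.5% of the RNA-seq counts were on the opposite strand, and without that library the ratio was 8.10. Gm14144 had 1150, 338 and 381 small RNA counts against 428, 277 and 252 (8.72, SE 0.55), and 8.09 without library 1. Gm20036 was even across libraries, with 88, 62 and 71 against 112, 64 and 74 (7.64, SE 0.20), and so was Gm11335, with 391, 243 and 294 against 623, 333 and 434 (7.23, SE 0.30). Gm15564 (156, 8 and 5 small RNA counts) and 1110038B12Rik (660, 55 and 79) again leaned on library 1. Without it Gm15564 did not pass the filter, and 1110038B12Rik had a log2 ratio of 5.76 in place of 7.53. Gm10176 and Gm42549 had log2 ratios of 7.28 and 7.21. All of these but Gm42418 were under 20 CPM in RNA-seq and entered through their small RNA. With at least 20 CPM in RNA-seq and at most 10% overlap, 21 of 240 long noncoding genes were rich and 132 poor (8.75 and 55%). Of all genes at that level and overlap, 10.7% were rich and 32.9% poor.

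Among coding genes abundant enough in RNA-seq to give at least 100 small RNA counts at a ratio of 1, the 8 poorest had almost no protected small RNA. They included 3 spermatid chromatin genes. Prm1, a protamine, had 41244, 83806 and 76372 RNA-seq counts and 13, 5 and 0 small RNA counts, a log2 ratio of -5.78 (SE 0.79, adjusted p = 1.58e-04). Tnp2, a transition protein, had 44683, 76963 and 54829 against 15, 1 and 1 (-5.67, SE 0.75), and Prm2 had 22644, 48351 and 41017 against 17, 2 and 3 (-4.66, SE 0.67). In these genes RNA-seq library 1 was the lowest and small RNA library 1 the highest.

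Genes with other roles were as poor. Eef1a1, the translation elongation factor, had 58017, 47428 and 42213 RNA-seq counts against 11, 2 and 2 (log2 ratio -5.50, SE 0.48, adjusted p = 7.60e-06). Tubb4b, a beta tubulin, was even across small RNA libraries with 4, 5 and 5 counts on 28530, 23777 and 18752 (-4.50, SE 0.30). The mitochondrial gene mt-Co1, a cytochrome oxidase subunit, had 71, 6 and 7 small RNA counts on 210117, 125784 and 140236 (-4.75, SE 0.79). Spz1 and Gsg1, both testis genes, had log2 ratios of -5.07 and -4.91. Without small RNA library 1 the ratios of this group were lower still for 7 of the 8 genes, for example -6.91 for Prm1, -8.03 for Tnp2, -6.70 for Eef1a1 and -6.66 for mt-Co1 and Tubb4b alone was higher, at -4.32.

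Genes of the piRNA machinery lay on both sides. Of 24 tested genes of 28 listed, 6 were rich and 5 poor (25 and 20.8%, against 19.6 and 28.6% of all genes). With at least 20 CPM in RNA-seq and at most 10% overlap, 4 of 22 were rich and 5 poor. Of such coding genes 10.8% were rich and 31.7% poor. The median log2 ratio of the list lay 1.02 above that of all genes (but below it when at least 10 counts were required in each kind). Piwil2, which encodes MILI, had 947, 821 and 875 small RNA counts, 712 ± 186 CPM, against 9899, 6817 and 6841 in RNA-seq, 239 ± 0.921 CPM (SD, n = 3 each). Its log2 ratio was 4.67 (SE 0.28, adjusted p = 5.48e-07). Piwil1, which encodes MIWI and had a like long RNA level of 221 ± 24.5 CPM, had only 67, 29 and 33 small RNA counts, 31.8 ± 3.87 CPM, and a log2 ratio of 0.39 (SE 0.25, adjusted p = 0.183). The 2 PIWI genes thus had nearly the same long RNA and small RNA levels that did not overlap. The ratio of Piwil1 moved with the setting. It was 1.28 per length (edgeR adjusted p = 0.00149) and 0.61 at an average of at least 20 CPM (edgeR adjusted p = 0.0417). It was below 0 without scaling or with at least 10 counts in each kind.

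Other rich members were Exd1, a partner of Tdrd12 (120, 57 and 80 small RNA counts; log2 ratio 4.77), the methyltransferase Henmt1 (91, 40 and 59; 4.17), the mitochondrial nuclease Pld6 (79, 33 and 66; 3.67) and the tudor protein gene Tdrkh (96, 27 and 44; 3.59). Wdr77, the partner of the arginine methyltransferase Prmt5, shares 98.7% of its body with another gene, so its RNA-seq counts of 12, 4 and 1 cannot be read and its ratio is not given. Tdrkh shares 22.8%, and 86.8% of its RNA-seq counts were on the opposite strand. The poor members were Mael (22, 5 and 12 small RNA counts on 40326, 28575 and 28330; log2 ratio -3.51), Rnf17 (-2.74), Tdrd7 (-2.53), Tdrd6 (-2.21) and Gtsf1 (-2.12). The scaffold Tdrd1 was at 1.11 (SE 0.22, adjusted p = 0.00134) and the helicase Mov10l1 at 0.71 (SE 0.20, adjusted p = 0.00904), both below 0 without scaling. Mybl1, the transcription factor that drives pachytene precursors, was at -1.61 (SE 0.25, adjusted p = 3.56e-04).

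Golgi genes too lay on both sides, with 4 rich and 5 poor of 27 tested (14.8 and 18.5%, against 19.6 and 28.6% of all genes). All 27 had at least 20 CPM in RNA-seq and at most 10% overlap, and of such coding genes 10.8% were rich and 31.7% poor. The median log2 ratio lay 0.45 above that of all genes (0.06 without small RNA library 3, and below that of all genes per length or with at least 10 counts in each kind). Golga2, the gene of GM130, a matrix protein of the cis-Golgi (chr2:32287384-32307921, plus strand), had 588, 339 and 487 small RNA counts, 365 ± 51.8 CPM, against 2738, 1762 and 1504 in RNA-seq, 60.2 ± 7.15 CPM (SD, n = 3 each). Its log2 ratio was 5.73 (SE 0.31, adjusted p = 2.26e-07), and 40.3% of the RNA-seq counts over its body were on the opposite strand. Gosr1, a Golgi SNARE, had 81, 62 and 72 small RNA counts against 1938, 1432 and 1511 (3.30, SE 0.17). The golgin gene Gcc1 stood at 2.97, with 62.4% of its RNA-seq counts on the opposite strand, and the KDEL receptor gene Kdelr2 at 2.14, the last below 0 without scaling. The coatomer genes Copa (-2.66) and Copb2 (-2.34), the SNARE gene Stx5a (-2.64), Golga5 (-2.11) and Rab6a (-3.72) were poor.

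Lists of germ cell stages were ordered by time of expression, which is a description of the lists and was not tested. As the list median less the median of all genes, spermatogonial genes stood at 0.01 (8 tested), meiotic prophase genes at -0.41 (23), pachytene and secondary spermatocyte genes at -1.30 (18), round spermatid genes at -2.68 (27) and elongating spermatid genes at -3.28 (24). Of all genes tested 28.6% were poor and 19.6% rich. Of coding genes with at least 20 CPM in RNA-seq and at most 10% overlap, 31.7% were poor and 10.8% rich. Of the elongating spermatid genes 21 were poor (87.5%) and 0 rich. Of the round spermatid genes 21 were poor (77.8%) and 1 rich, Tex101, with 140, 149 and 166 small RNA counts (log2 ratio 2.26). Pachytene and secondary spermatocyte genes had 8 poor members (44.4%) and 0 rich. The poor ones included Ccna1, the meiotic cyclin A1 (2, 0 and 0 small RNA counts on 6566, 4967 and 4600, so that only library 1 holds any), and Ybx3 (24, 7 and 11 on 31997, 23863 and 22655; log2 ratio -3.09). In meiotic prophase 4 of 23 were poor (17.4%, below the share of all genes) and 1 was rich (4.35%). The rich one was Hormad2, an axis protein, with 89, 40 and 55 small RNA counts (2.89, below 0 without scaling). Without small RNA library 1, 8 of the 23 prophase genes were poor, against 2867 of all 9019 genes tested, which is no longer a lower share. The prophase median itself lay above that of all genes when no filter on low values was set. Spermatogonial genes had 2 rich members, Ccnd2 (28, 25 and 42; log2 ratio 4.17) and Zbtb16 (5, 17 and 17; 2.68, below 0 without scaling), and 1 poor, Etv5, with 0 small RNA counts, whose floor of -1.83 is short of 4-fold. Ccnd2 and Zbtb16 are under 20 CPM in RNA-seq and so entered through their small RNA.

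Sertoli, Leydig and myoid cell genes carried little protected small RNA. Of 11 Sertoli cell genes 8 were poor, of 11 Leydig cell genes 10, of 6 peritubular myoid genes 6, and none of these was rich. Of all genes tested 28.6% were poor and 19.6% rich. Clu, a secreted Sertoli product, had 2, 2 and 2 small RNA counts on 25513, 17767 and 15262 in RNA-seq (log2 ratio -5.43, SE 0.31), and Cyp17a1, the Leydig steroid enzyme, had 4, 0 and 1 on 7056, 7682 and 5376 (-4.20, SE 0.55). Myh11, smooth muscle myosin, had 0 small RNA counts on 2744, 1657 and 1747. With genes at 0 placed at their floor, the median log2 ratios were -3.14 for Sertoli, -3.40 for Leydig and -3.89 for myoid cells. Without small RNA library 1 these medians, at the floor, were -2.78, -2.73 and -2.59, with 4, 6 and 5 genes then at 0, and 10, 9 and 6 genes were poor. Of 4 macrophage genes 3 were poor and 1 rich, Cx3cr1 (72, 77 and 110 small RNA counts), of which 21.2% is shared with another gene and 98.3% of RNA-seq counts are on the opposite strand. No endothelial or red blood cell gene passed the filter. In whole testis, fewer cells of a type and less RNA per cell cannot be told apart, for small and long RNA alike.

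Ribosomal protein and mitochondrial genes were mostly poor. Of 71 ribosomal protein genes 45 were poor and 4 rich (63.4 and 5.63%, against 28.6 and 19.6% of all genes). Their median log2 ratio was -2.96, or -2.45 with genes at 0 placed at their floor. The rich ones were Rplp1, which lies 99.8% inside a precursor, Rpl7a, Rps15 (109, 60 and 70 small RNA counts; log2 ratio 2.20) and Rpl30 (54, 56 and 45; 2.05). Rps24 had 2, 2 and 3 small RNA counts on 11489, 7659 and 8255 (-4.12, SE 0.29). Of 11 mitochondrial genes 7 were poor (63.6%) and 0 rich, with a median of -2.56, and -4.08 without small RNA library 1. mt-Nd1 stood at -3.79 and mt-Nd4 at -3.03. Library 1 had 7494 small RNA counts of mitochondrial genes, against 620 and 841 in libraries 2 and 3.

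**Figure D3:**
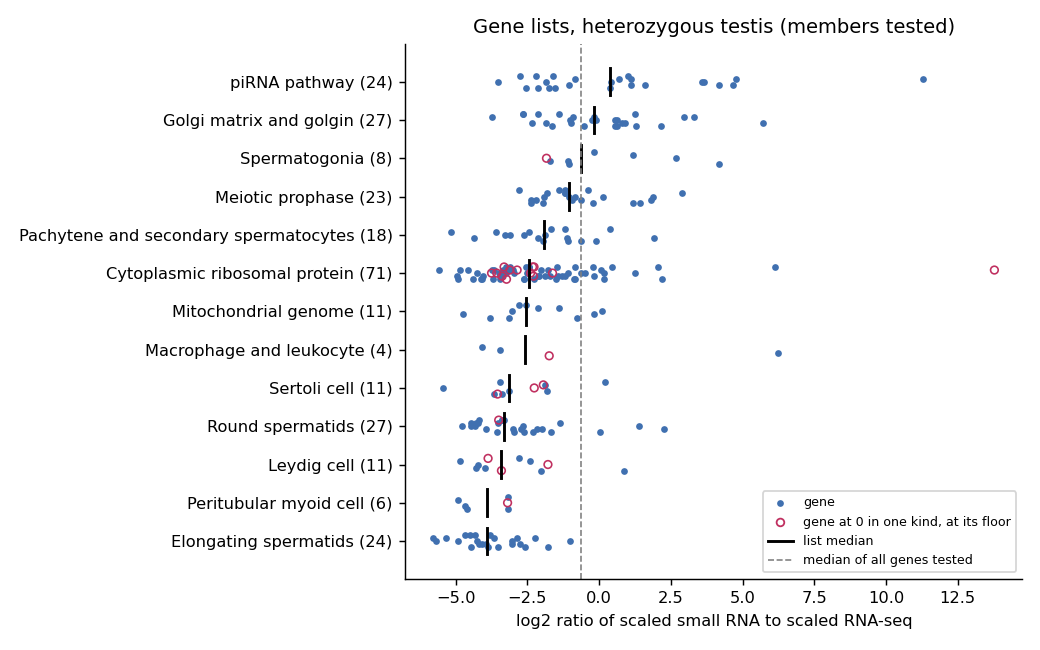
Log2 ratio of scaled small RNA to scaled RNA-seq for each tested member of 13 gene lists (number tested in brackets), with list medians as bars and the median of all 9025 genes, -0.62, as a dashed line. Open circles are genes at 0 in one kind of library, drawn at their floor of 3 counts over 3 libraries. The piRNA pathway and Golgi lists spread to both sides of the line and the spermatid and somatic lists lie to its left.

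Rich coding genes had longer 3′ UTRs at the median, a feature the call did not use, although their lower quartile, 777 bases, lay below the median of all genes. Among the 7245 coding genes with at most 10% overlap and at least 20 CPM in RNA-seq, 786 were rich and 2297 poor. The longest annotated coding transcript had a median 3′ UTR of 2113 bases in rich genes, 533 in poor genes and 887 in all of them. Coding length was nearly level, with medians of 1407, 1440 and 1545 bases. In 5 equal groups by 3′ UTR length the share of rich genes was 5.31, 6.21, 7.59, 9.68 and 25.5%, from 223 bases or less to 2331 or more. The share of poor genes went the other way, from 47.9 to 17.6%. By coding length the rich share was 11.4% in the shortest group, 13.4% in the middle and 6.97% in the longest. Small RNA was counted over exons and RNA-seq over whole gene bodies, so a longer exon sequence raises the first. With both set per length, 92 genes of the shortest 3′ UTR group and 381 of the longest were rich, against 77 and 369 as given.

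The order also held at each level of long RNA. In 5 equal groups by RNA-seq CPM, genes with a 3′ UTR above 887 bases were more often rich than the others, with 23.7 against 9.43% at 20 to 30.5 CPM, 15.9 against 6.92% at 46.3 to 72.5 CPM and 5.57 against 2.44% from 128 CPM up. The share of rich genes was lower at each higher level for the longer 3′ UTRs and for the shorter ones. Genes are not independent replicates and no test was made across them.

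Coding genes of chromosome X had no rich member. Of 179 tested with at least 20 CPM in RNA-seq, 0 were rich and 134 poor (74.9%), with a median log2 ratio of -3.37. Among the autosomes the share of rich genes ranged from 6.96% on chromosome 14 to 15.2% on chromosome 6, and that of poor genes from 25.7 to 39.9%. Chromosome Y, with 5 genes, and the mitochondrial genome, with 8, also had 0 rich, and 60 and 62.5% poor. With both measures per length, 7 chromosome X genes were rich and 107 poor. Without small RNA library 1 the numbers were 0 and 135.

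**Figure D4:**
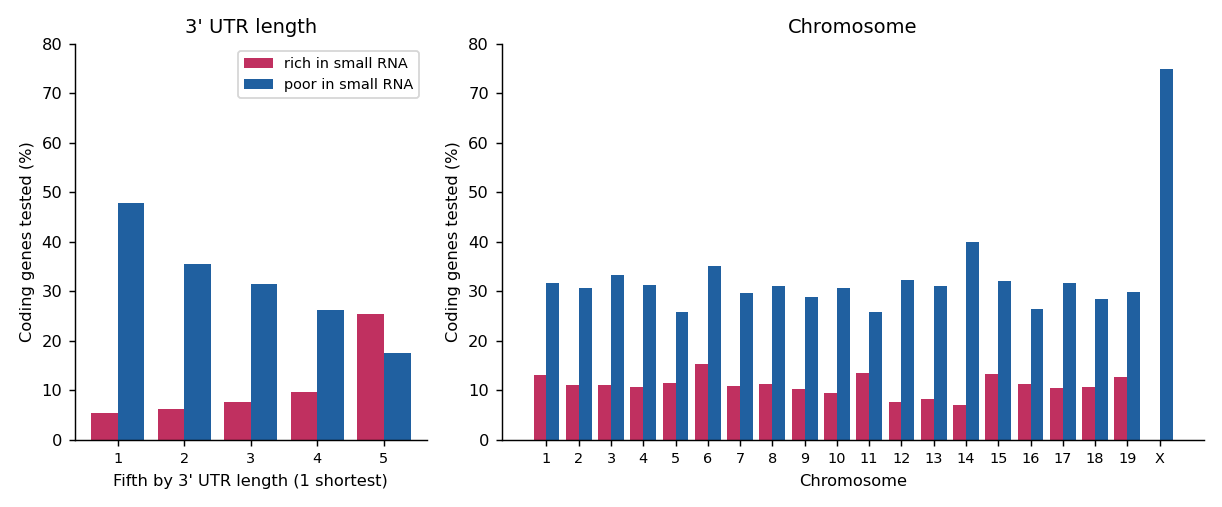
Percent of coding genes (at most 10% overlap, at least 20 CPM in RNA-seq) that were rich or poor in small RNA, left in 5 equal groups by 3′ UTR length and right by chromosome, for chromosomes with at least 100 such genes. The rich share is 25.5% in the group with the longest 3′ UTRs, and chromosome X has 74.9% poor and 0 rich genes.

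Closeness to a precursor was rare among rich genes. Of 1308 rich coding genes with at most 10% overlap, 9 lay within 10 kb of a same-strand precursor (0.688%), against 26 of the 6708 others (0.388%). They included Elfn2, Unc119b (log2 ratio 7.41) and C2cd2l (6.58). A precursor on the opposite strand was present in 14 tested coding genes, of which 3 were rich (21.4%, against 16.3% of all such coding genes), Stox1 (63, 13 and 18 small RNA counts; log2 ratio 6.34), Shmt1 (98, 79 and 97) and Cbx7 (26, 22 and 22; 3.36), and 3 poor. With at least 20 CPM in RNA-seq 1 of 12 was rich, Shmt1. In Stox1 98.9% and in Cbx7 55.6% of the RNA-seq counts lay on the opposite strand. Without small RNA library 1 Stox1 did not pass the filter. These genes were chosen after their values were seen.

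The homozygous libraries give the same measure in samples that had no part in the calls above. There 8806 genes were tested, of which 1765 were rich (20%) and 2470 poor (28%). Of the 1436 rich genes with at most 10% overlap in heterozygotes, 1345 were tested in homozygotes and 1267 were rich there as well, which is 88.2% of the heterozygous list and 90.6% of the 1398 genes on the homozygous list that were tested in heterozygotes. Of the 1436, 814 had at least 20 CPM in RNA-seq of heterozygotes, and the overlap of these alone was not counted. The others needed small RNA to pass the filter, which was the same in homozygotes, so their overlap is in part set by the filter. In homozygotes the log2 ratio was 8.55 for Ap3s2, 8.00 for Xrcc2, 4.64 for Piwil2 and -6.39 for Prm1, while Golga2 was lower than in heterozygotes, at 4.87.

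The ratio was then compared between genotypes over all 12 libraries, which asks where small RNA changed with the chromosome 18 locus beyond any change of long RNA. Of 8931 genes tested 2 passed (0.0224%), both with more small RNA in heterozygotes, and 581 had an unadjusted p under 0.05. DESeq2 passed 36 genes, 18 in each direction, among them these 2. Unc119b, which binds lipid-modified proteins (chr5:115122550-115134975, minus strand, 8006 bases from a same-strand precursor), had 491, 369 and 374 small RNA counts in heterozygotes and 100, 63 and 46 in homozygotes. Its small RNA level was 326 ± 64.6 against 53.2 ± 14.4 CPM, while RNA-seq stood at 16.5 ± 2.28 and 18.2 ± 0.629 CPM (SD, n = 3 each). The small RNA libraries of the genotypes did not overlap and those of RNA-seq nearly matched. The difference of log2 ratios was 2.64 (SE 0.27, edgeR adjusted p = 7.46e-04).

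Kdelr2, the receptor that returns KDEL proteins from the Golgi to the endoplasmic reticulum (chr5:143403838-143421901, plus strand), had 42, 29 and 34 small RNA counts in heterozygotes and 10, 12 and 7 in homozygotes. Its small RNA level was 27.6 ± 4.40 against 7.52 ± 1.67 CPM, with RNA-seq at 54.1 ± 2.92 and 55.7 ± 0.520 CPM (SD, n = 3 each). The difference of log2 ratios was 1.80 (SE 0.23, edgeR adjusted p = 0.00624), on few counts. Golga2 was higher in heterozygotes by 0.90 on the log2 scale and did not pass with edgeR on all libraries (adjusted p = 0.605), but did with DESeq2 (adjusted p = 8.97e-04). It also passed with edgeR when small RNA library 1 of the heterozygotes was left out (difference 0.81, edgeR adjusted p = 0.0332). Without small RNA library 1 of the heterozygotes 188 genes passed, 32 higher and 156 lower in heterozygotes, and without small RNA library 1 of the homozygotes only Unc119b did, with Kdelr2 at an adjusted p of 0.0728. The count of genes that differ between genotypes thus depends on that heterozygous library, whereas Unc119b passed in every setting tried.

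**Figure D5:**
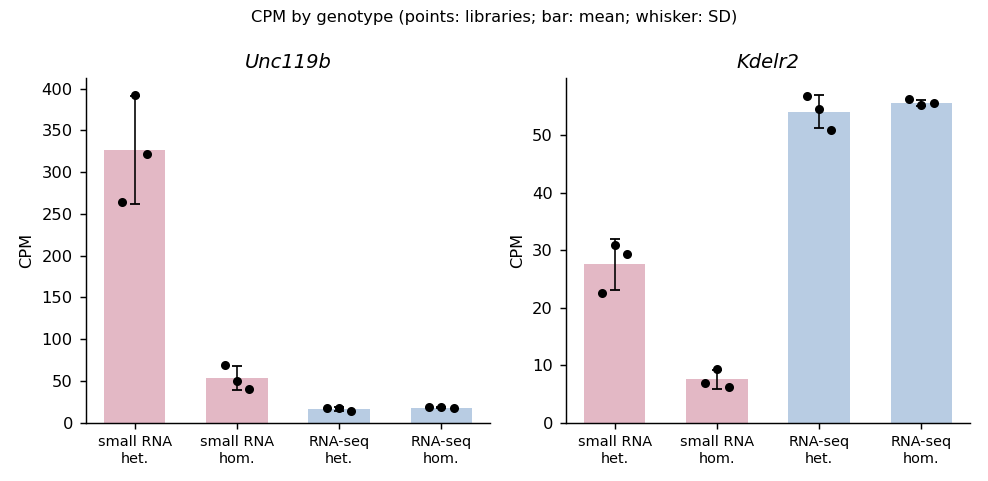
CPM of Unc119b and Kdelr2 in protected small RNA and RNA-seq of heterozygous (het.) and homozygous (hom.) testis, with points for libraries, bars for means and whiskers for the SD (n = 3). Small RNA is higher in heterozygotes, 326 against 53.2 CPM for Unc119b and 27.6 against 7.52 for Kdelr2, while RNA-seq differs little.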

How the data were processed

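Libraries were grouped by their genotype and library labels. Both kinds of file hold raw counts per gene, made by the authors with featureCounts (1.6.1 for small RNA, 1.6.2 for RNA-seq), per the file headers. Small RNA was counted on the sense strand over exons. RNA-seq fragments were counted over whole gene bodies of GENCODE genes plus 466 piRNA precursors, and fragments in several same-strand features were left out. The build was mm10, per the submitters' processing notes, and mm9 also appears there with no role given. Tables were joined on the Ensembl identifier without version (49585 genes). Coordinates and transcript parts came from a GRCm38 annotation.

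Counts were fitted in R 4.3.3 with edgeR 4.0.16 (TMM, quasi-likelihood, Benjamini-Hochberg over all genes tested), small RNA against RNA-seq in 3 against 3 libraries. The difference between genotypes was the interaction over 12 libraries. The code was tested on simulated data. Alternatives were other scalings and filters, DESeq2 1.42.0, limma voom 3.58.1, a 2-fold test limit, length offsets, a replicate block, fits without overlapping or short noncoding genes, and leaving out each library. A floor of 3 counts over the libraries of a kind, chosen after seeing the data and also used without small RNA library 1, stands in for a kind at 0. Counts without molecular identifiers carry more than counting error.

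Members and lists were chosen with earlier results of these data known. The rule for named genes took the 12 coding and 8 long noncoding rich genes with the largest ratio (at least 50 counts on average in each kind, at most 10% overlap, at most 4 placeholder symbols), the 6 largest in precursors, the 8 poorest coding genes expected to give at least 100 small RNA counts, up to 2 members of each list by lowest p, the 5 leading microRNA genes, genes that differ between genotypes, and Golga2, Piwil1, Piwil2, Mov10l1, Mybl1, Tdrd1, Kdelr2 and Unc119b. Other list members and loci were named after their values were seen. The study's other 3 libraries were not used here.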

Additional observations from a re-analysis of the deposited data

Results flagged for a closer look

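Genes whose small-to-long ratio differed between the genotypes in the interaction test were Unc119b, with a log2 difference of 2.64 (heterozygous less homozygous; ratios of 7.41 and 4.84), and Kdelr2, with 1.80 (2.14 and 0.39). In both, the 3 heterozygous small RNA libraries lay above the 3 homozygous ones.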

How the results depend on the processing

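No paired analysis was possible because, for the ratio itself, the labels give no number shared by a small RNA and an RNA-seq library and do not say whether the kinds share animals. For the genotype difference, same-numbered small RNA libraries did not vary together (r = -0.23, 0.07 and -0.22 over 1049 genes), and the replicate block called 2 genes, Unc119b at 2.66 and Kdelr2 at 1.81.

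Without scaling, 992 genes were called higher and 7599 lower, with 556 rich (261 at most 10% overlapped) and 6580 poor. In coding genes from 20 CPM this gave 63 rich and 5941 poor, with 6 and 28 rich in the groups of shortest and longest 3′ UTRs. Log2 ratios turned for Zbtb16 (-0.44), Hormad2 (-0.27), Mlh3 (-1.26), Piwil1 (-2.78), Mov10l1 (-2.43), Tdrd1 (-2.04) and Kdelr2 (-1.004). Without a filter 12496 were called, 4763 higher and 7733 lower, 6091 were poor, 470 coding genes from 20 CPM were rich (44 and 226 by 3′ UTR), the meiotic prophase list stood at 0.36 and Mov10l1 at -0.11. At an average of 20 CPM 1578 were poor, 1463 of them coding genes from 20 CPM and 66 on chromosome X. With at least 10 counts in each kind 2784 were called, 1316 higher and 1468 lower, 664 rich (611 with at most 10% overlap) and 657 poor. There coding genes gave 177 rich and 636 poor, 12 and 91 rich by 3′ UTR and 2 poor on chromosome X. List medians turned to -1.09 (piRNA pathway), -0.88 (Golgi) and 4.29 (macrophage, 1 gene left), and ratios to -0.20 (Mlh3), -1.71 (Piwil1), -1.38 (Mov10l1) and -0.98 (Tdrd1). That filter removes genes with little small RNA. Per length, 7 chromosome X genes were rich, the Golgi list stood at -0.78 and Piwil1 at 1.28. For the other shifts the cause was not tested.

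Leaving out 1 library gave 6217 to 6823 genes called, 1713 to 1808 rich and 2358 to 2867 poor, and 1386 to 1472 rich with at most 10% overlap. The genotype difference gave 36 genes with DESeq2, 12 without a filter and 1 to 188 with 1 library left out, with Unc119b at 2.51 to 2.84 and Kdelr2 at 1.70 to 1.99. Small RNA depth limits the poor calls, 439 of which rest on 0 small RNA counts.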
